A study of Rattus norvegicus with 8 samples.

Results

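Cyclic AMP signalling was examined through 10 genes: the 4 regulatory subunits of protein kinase A (Prkar1a, Prkar1b, Prkar2a, Prkar2b), its catalytic subunits Prkaca and Prkacb, the adenylyl cyclases Adcy1 and Adcy8, the transcription factor Creb1 and the phosphodiesterase Pde4b. The genes were chosen by name, and every probe set of the Affymetrix rat genome array annotated to a single one of these symbols was taken. This gave 19 probe sets of 9 genes, out of 31042 probe sets on the array once its control probe sets were left out. Adcy1 had no such probe set. All 9 genes kept at least 1 probe set above a filter on dim signals, and 13 of the 19 probe sets were tested, among 18625 in all.

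The study measured RNA from the rat basolateral amygdala, that is, its lateral and basal nuclei, which were isolated with a laser from the hemisphere of the electrode. Epileptogenic rats had responded to electrical stimulation of the amygdala with status epilepticus, a long seizure after which epilepsy can develop, and showed no spontaneous seizures during the study, whereas control rats were operated but received no stimulation. All rats were habituated to the apparatus in 5 sessions of 10 min and on day 8 received 2 trials of a footshock (1.5 mA, 1 s) with a tone (75 dB, 20 s), the tone ending with the shock in paired training and following it in unpaired training. Tissue was taken 3 h later. The 4 groups are epileptogenic paired, epileptogenic unpaired, control paired and control unpaired, with 2 arrays each, lettered A and B. For an array the amplified RNA of 2 rats was pooled, out of 4 in a group, so the spread between arrays is a spread between pools, and no group is free of tone, shock or surgery.

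Cyclic AMP is made by adenylyl cyclases, which receptors switch on through the G protein Gs and off through Gi. It binds the regulatory subunits of protein kinase A, which then let go of the catalytic subunits, and these phosphorylate targets that include the transcription factor CREB. Phosphodiesterases break cyclic AMP down again. In the lateral amygdala of rodents, protein kinase A and CREB are known for their part in turning a tone-shock pairing into a lasting fear memory.

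Values are MAS5 signals, deposited on a linear scale and taken here to log2. Median signals ran from 29.0 to 43.2 over the arrays, which correlated with each other at Pearson's r of 0.846 to 0.963, and the number of arrays limits the precision. The tissue label was set against marker genes. Of 9 excitatory neuron markers with a probe set, 8 were above the filter, and Tbr1, a factor of cortical projection neurons, was not. The mean log2 signal of the 8 was 6.11 to 6.48 in epileptogenic arrays and 7.14 to 7.46 in control arrays, and 3 of the 8 were called lower. For microglia and macrophages, the mean of 11 markers was 7.61 to 8.18 in epileptogenic arrays and 5.31 to 6.19 in control arrays, with 9 called higher. Of 8 striatal and central amygdala markers with a probe set, 7 were above the filter as well. The share of neighbouring tissue in the samples was not tested.

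Prkar2b encodes RII beta, the regulatory subunit that is prominent in forebrain neurons and that anchoring proteins hold near membranes and the cytoskeleton. Read by its probe set 1371133_a_at, it was the 1 member that differed between epileptogenic and control rats by the test. Its signal was 365 and 335 in epileptogenic paired arrays and 293 and 238 in epileptogenic unpaired arrays, against 535 and 539 in control paired arrays and 602 and 531 in control unpaired arrays. All 4 epileptogenic arrays lay below all 4 control arrays. On the log2 scale Prkar2b averaged 8.25 ± 0.27 in epileptogenic arrays and 9.11 ± 0.09 in control arrays (SD, n = 4 each), a change of -0.86 ± 0.18 (SE; 95% interval -1.25 to -0.46), or 1.81-fold lower. The limma adjusted p over all tested probe sets was 0.0318. In this comparison 1 of the 13 member probe sets was called, against 3.63% of all tested probe sets, and the 1 call was lower, against 0.827% of all.

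The size of the Prkar2b difference varied little between settings, while its call did not hold in most of them. The median of all tested probe sets was itself -0.11, and relative to it the Prkar2b change was -0.75. With arrays centred on their medians the adjusted p was 0.179. Over 17 alternative settings the change ran from -0.93 to -0.75 and the adjusted p from 3.27e-04 to 0.179, and the probe set passed in 5 of them. It did not pass when any single array was left out, with adjusted p from 0.0522 (without epileptogenic unpaired A) to 0.116 (without control unpaired A). In bulk tissue, fewer cells of a type and less RNA per cell cannot be told apart, and the excitatory neuron markers moved the same way. So did the pan-neuronal markers, with all 9 tested changes negative and 0 called. Their mean log2 signal was 9.67 to 10.07 in epileptogenic arrays and 10.27 to 10.48 in control arrays. The part of the marker differences in the Prkar2b difference was not tested.

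The promoter of Prkar2b is shown because this gene was the 1 member called. It runs from 250 bases before to 50 bases after the start site in the RefSeq table of build GRCr8, at chr6:54381362-54381661 on the minus strand.
Prkar2b: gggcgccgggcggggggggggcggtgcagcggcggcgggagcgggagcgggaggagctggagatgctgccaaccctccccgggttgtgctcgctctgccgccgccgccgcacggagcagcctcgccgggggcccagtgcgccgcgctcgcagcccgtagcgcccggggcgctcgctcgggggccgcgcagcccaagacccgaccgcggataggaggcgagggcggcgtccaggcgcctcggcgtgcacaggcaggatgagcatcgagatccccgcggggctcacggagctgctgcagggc
Of these bases 79.0% were G or C. A search on both strands for the cyclic AMP response element TGACGTCA, which binds CREB, and for its shorter form TGACG, which reads CGTCA on the other strand, found neither in this window. Such letters were present in the windows of 1.83% and 21.2% of all 33469 promoters in the table for the full and the short form. The search covered this window only. An ATG follows the start site within a few bases, and whether the window reaches the bases before the true start of transcription was not tested.

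**Figure D1:**
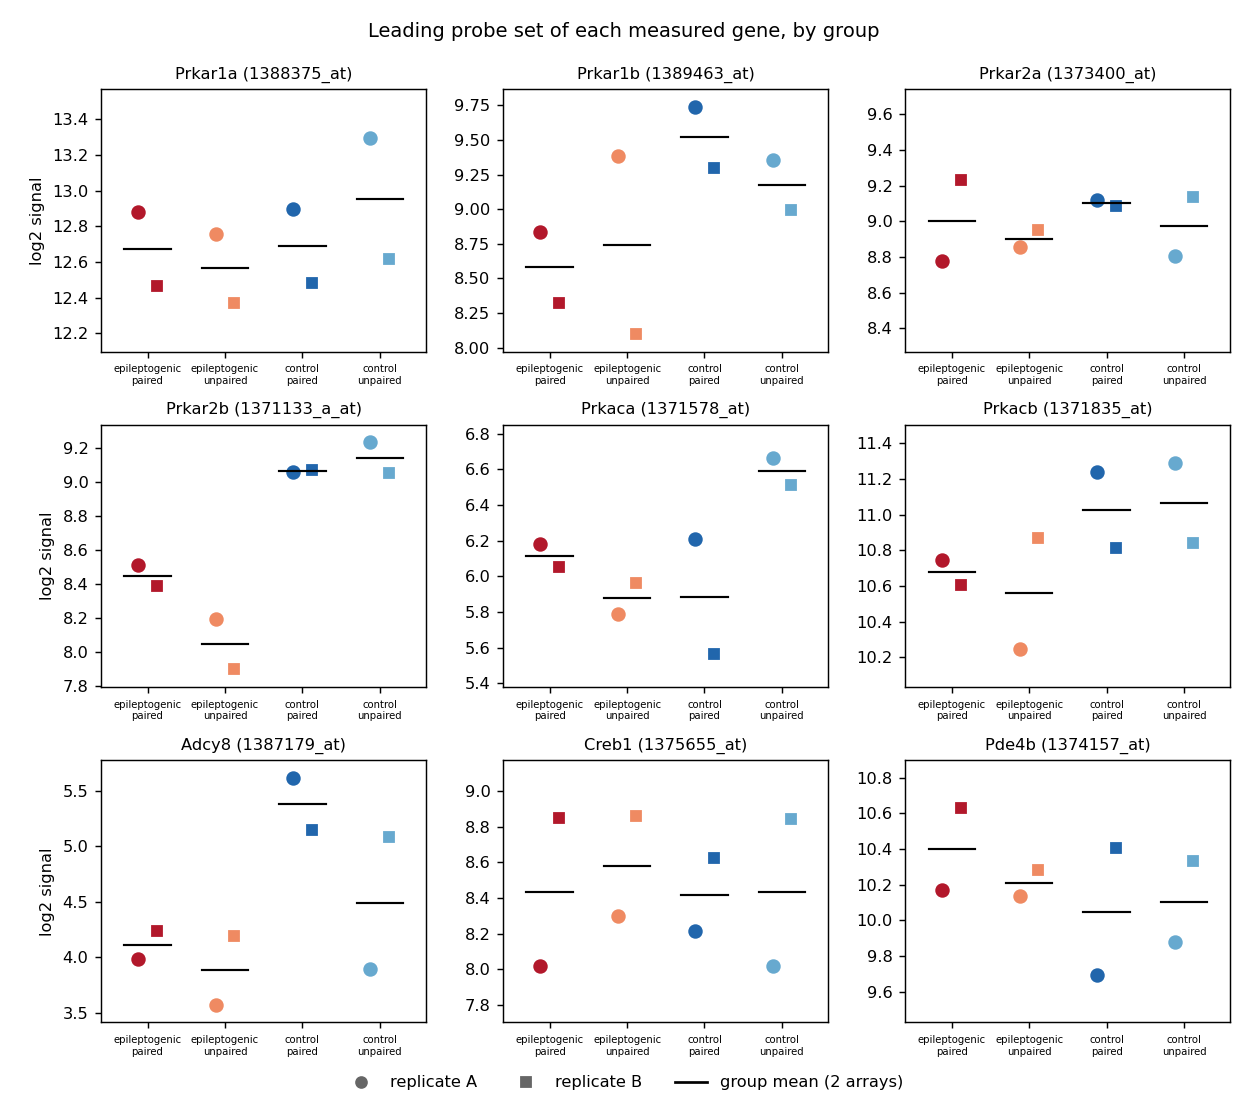
Log2 MAS5 signal (vertical axes, a separate scale in each panel) of the probe set with the highest mean signal for each of the 9 measured genes, by group; circles are arrays lettered A, squares arrays lettered B, and bars the mean of 2 arrays. In the Prkar2b panel the 4 epileptogenic arrays (7.90 to 8.51) lie under the 4 control arrays (9.05 to 9.23), while in the Creb1 panel the squares lie over the circles in every group.

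The lower Prkar2b signal was seen after either training. After paired training its change was -0.62 ± 0.25 and after unpaired training -1.10 ± 0.25 (log2, SE). Neither passed alone, with limma adjusted p of 0.438 after paired and 0.116 after unpaired training. The epileptogenic arrays were at 8.45 ± 0.09 for paired and 8.05 ± 0.21 for unpaired training, and the control arrays at 9.07 ± 0.01 for paired and 9.14 ± 0.13 for unpaired training (SD, n = 2 each). The difference between the trainings in the epileptogenic effect was 0.48 ± 0.35 (interaction, unadjusted p = 0.207, adjusted p = 0.9998) and did not pass the test. Members called in these separate comparisons numbered 0 of 13 after paired training, against 0.532% of all tested probe sets, and 0 of 13 after unpaired training, against 0.317% of all. At an unadjusted p under 0.05 the counts were 2 of 13 members after paired training (9.92% of all) and 1 of 13 after unpaired training (12.5% of all). With the replicate letter as a block, Prkar2b passed after unpaired training with an adjusted p of 0.0087, where 7.01% of all tested probe sets passed, and not after paired training (0.0840, where 4.62% of all passed).

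Prkar1b encodes RI beta, a regulatory subunit found mainly in the nervous system. Its log2 signal was 8.83 and 8.32 in epileptogenic paired arrays and 9.38 and 8.10 in epileptogenic unpaired arrays, against 9.74 and 9.30 in control paired arrays and 9.36 and 8.99 in control unpaired arrays. The epileptogenic unpaired A array lay among the controls and the other 3 epileptogenic arrays below them. The change was -0.69 ± 0.29 (95% interval -1.35 to -0.03) and did not pass, with a limma adjusted p of 0.253. With the letter as a block, the adjusted p was 0.0216, and 2 of 13 members, Prkar2b and Prkar1b, were then called lower against 8.65% of all tested probe sets (16.2% in either direction). Within the B arrays alone the Prkar1b change was -0.93, and within the A arrays alone it was -0.44. Each of these fits held a single array per group.

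Prkar1a encodes RI alpha, the most widely expressed regulatory subunit, and its 3 tested probe sets did not move together. The brightest, 1388375_at, had 12.88 and 12.46 in epileptogenic paired and 12.76 and 12.37 in epileptogenic unpaired arrays, against 12.90 and 12.48 in control paired and 13.29 and 12.62 in control unpaired arrays (log2 signal). The groups overlapped and the change was -0.20 ± 0.20. A second probe set, 1373951_at, was at 11.54 to 11.69 in epileptogenic arrays and 11.16 to 11.53 in control arrays. These ranges did not overlap, yet the change was only 0.22 ± 0.15 and the limma adjusted p was 0.462. Among the 13 member probe sets, 1 separated the 4 and 4 arrays with the epileptogenic ones higher (this one; 7.29% of all tested probe sets did so) and 1 with them lower (Prkar2b; 7.77% of all). The third Prkar1a probe set, 1386905_at, gave -0.11 ± 0.23.

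Prkar2a encodes RII alpha, the close relative of RII beta that many tissues use. Its leading probe set gave 8.78 and 9.23 in epileptogenic paired and 8.86 and 8.95 in epileptogenic unpaired arrays, against 9.12 and 9.09 in control paired and 8.81 and 9.14 in control unpaired arrays (log2 signal). The groups overlapped, and the change of -0.08 ± 0.19 has a 95% interval of -0.50 to 0.34.

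The catalytic subunits phosphorylate the kinase's targets once released. Prkacb, whose product is abundant in brain, had 10.75 and 10.61 in epileptogenic paired and 10.25 and 10.87 in epileptogenic unpaired arrays, against 11.24 and 10.81 in control paired and 11.29 and 10.84 in control unpaired arrays (log2 signal, leading probe set). The epileptogenic unpaired B array lay within the control range. Its change was -0.43 ± 0.20 (95% interval -0.89 to 0.03, limma adjusted p = 0.302), and the other tested Prkacb probe set gave -0.08 ± 0.23. Prkaca, the most widely expressed catalytic subunit, was at 5.79 to 6.18 in epileptogenic arrays and 5.56 to 6.66 in control arrays. The change in Prkaca was -0.24 ± 0.24 (95% interval -0.78 to 0.30).

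**Figure D2:**
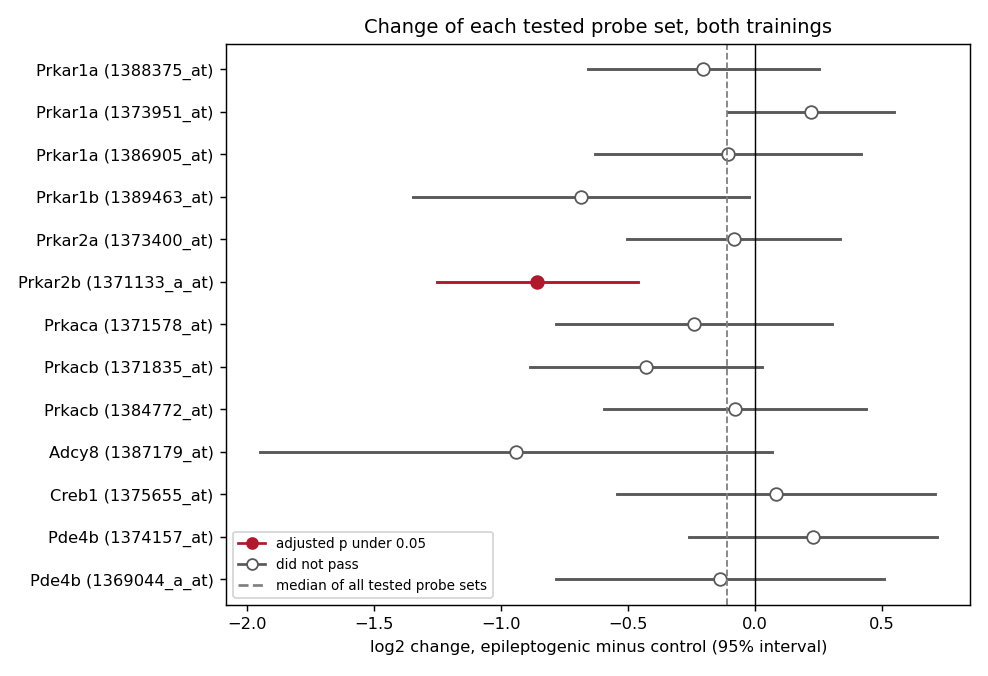
Log2 change (horizontal axis, epileptogenic minus control, both trainings) of the 13 tested probe sets of the 9 measured genes, with 95% intervals from limma as bars. The Prkar2b interval (-1.25 to -0.46) is the one that passed, and the dashed line marks the median of all tested probe sets at -0.11.

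Prkar2b was also set against the other subunits of the same array, a difference that no scaling of whole arrays can move. Minus the mean log2 signal of the leading probe sets of the 5 other subunits, and relative to the control mean, it stood at -0.38 and -0.35 in epileptogenic paired arrays and -0.62 and -0.76 in epileptogenic unpaired arrays, against -0.19 and 0.22 in control paired arrays and -0.06 and 0.02 in control unpaired arrays. All epileptogenic arrays lay under all control arrays, with a mean difference of -0.53. Against single partners the difference was -0.77 for Prkar2a, -0.65 for Prkar1a and -0.62 for Prkaca, each without overlap of the 4 and 4 arrays. Against Prkar1a the ranges nearly met, at -0.356 in the highest epileptogenic array and -0.342 in the lowest control array. The difference was -0.43 for Prkacb and -0.17 for Prkar1b, both with overlap. These are descriptions with no test, because Prkar2b was singled out with its result known.

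**Figure D3:**
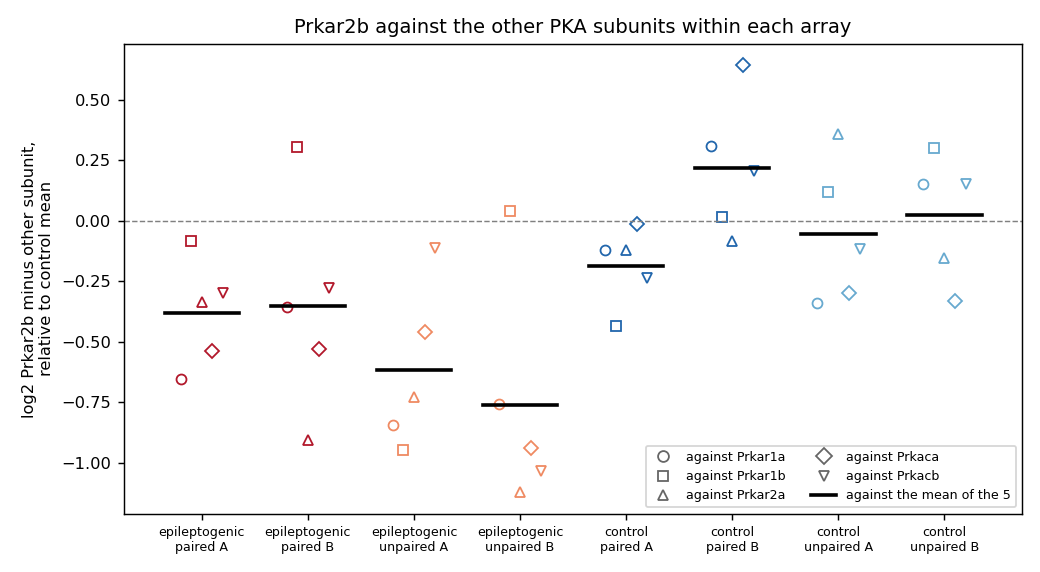
Log2 signal of Prkar2b minus that of another protein kinase A subunit in the same array, relative to the control mean (vertical axis), for each of 8 arrays; open symbols are the 5 single partners and bars the difference from their mean. The bars of the epileptogenic arrays sit between -0.76 and -0.35 and those of the control arrays between -0.19 and 0.22.

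Adcy8 encodes an adenylyl cyclase that calcium and calmodulin stimulate, as Adcy1 does. It was dim, at 3.98 and 4.24 in epileptogenic paired and 3.57 and 4.19 in epileptogenic unpaired arrays, against 5.62 and 5.15 in control paired and 3.89 and 5.09 in control unpaired arrays (log2 signal). The control unpaired A array lay among the epileptogenic arrays, and all 4 epileptogenic arrays were under the filter level of 4.35. Its change of -0.94 ± 0.45 was the most negative of the members but had a 95% interval of -1.95 to 0.07 and a limma adjusted p of 0.303. Pde4b encodes a phosphodiesterase specific for cyclic AMP. Its leading probe set was at 10.14 to 10.63 in epileptogenic arrays and 9.70 to 10.40 in control arrays, a change of 0.23 ± 0.22, and its other tested probe set gave -0.14 ± 0.29. Neither Pde4b probe set passed, and their ranges overlapped between the groups.

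Creb1 encodes CREB itself, the factor that protein kinase A phosphorylates. Its log2 signal was 8.02 and 8.85 in epileptogenic paired and 8.30 and 8.86 in epileptogenic unpaired arrays, against 8.21 and 8.62 in control paired and 8.02 and 8.84 in control unpaired arrays. In every group the array lettered B was the higher, and the epileptogenic and control ranges coincided. The change was 0.08 ± 0.28 (95% interval -0.55 to 0.71), and shifts of Creb1 RNA inside that interval are compatible with these arrays. With the letter as a block the SE was 0.14. A phosphorylated protein is not measured by an array.

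The first of the 2 Creb1 promoters in the RefSeq table (GRCr8, chr9:73397259-73397558, plus strand) is shown because this window holds the short form of the element, in capitals.
Creb1: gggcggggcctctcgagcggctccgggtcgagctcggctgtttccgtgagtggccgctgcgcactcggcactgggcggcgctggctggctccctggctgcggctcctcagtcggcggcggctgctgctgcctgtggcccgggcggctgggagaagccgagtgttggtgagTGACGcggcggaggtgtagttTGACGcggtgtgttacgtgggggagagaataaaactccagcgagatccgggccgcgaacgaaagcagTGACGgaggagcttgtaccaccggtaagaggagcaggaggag
The 3 short forms begin 80 and 59 bases before the start site and 8 bases after it. The second Creb1 window held neither form. Among 11 promoters of 8 members in the table, 0 held the full element and 3 (27.3%) held the short form, those of Creb1, Prkaca and Prkacb, against 21.2% of all promoters. A match of letters is a description and not a measured binding site.

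Over the 13 tested probe sets the epileptogenic minus control change had 10 negative and 3 positive signs, where 60.2% of all tested probe sets were negative. Their median was -0.14, beside -0.11 for all tested probe sets. The 6 member probe sets under the filter were 2 of Prkar2a (signals of 11.5 to 31.9 and 2.23 to 26.7), 1 of Prkacb (1.25 to 14.1) and 3 of Creb1 (4.54 to 17.2, 1.02 to 28.95 and 0.423 to 13.0), and in each of them epileptogenic and control arrays overlapped.

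Paired training, in which the tone predicts the shock, was compared with unpaired training to ask which RNAs go with the learned association. No member differed by the test: 0 of 13 passed, against 0% of all tested probe sets, and at an unadjusted p under 0.05 there were 0 of 13 members and 1.15% of all. Adcy8 had the most positive change, 0.56 ± 0.45, with 4.75 ± 0.77 in paired and 4.19 ± 0.65 in unpaired arrays (SD, n = 4 each). Prkaca had the most negative, -0.23 ± 0.24, and Creb1 gave -0.08 ± 0.28 with a 95% interval of -0.71 to 0.55. The 4 paired and 4 unpaired arrays separated in 0 of 13 member probe sets, while they did so in 0.263% of all tested probe sets with paired higher and in 0.596% with paired lower.

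The same held within each stage. In epileptogenic rats, paired against unpaired training gave 0 of 13 members called by limma and 0% of all tested probe sets, with 0 members and 1.22% of all at an unadjusted p under 0.05. In control rats the counts were likewise 0 of 13 and 0%, with 0 members and 1.68% of all unadjusted. The interaction of training and epileptogenesis called 0 of 13 members and 0% of all, with 0 members and 1.47% of all unadjusted. The interaction nearest to the threshold was that of Prkaca, at 0.94 ± 0.48 (unadjusted p = 0.0812, adjusted p = 0.9998). Prkaca was at 6.18 and 6.05 in epileptogenic paired arrays and 5.79 and 5.97 in epileptogenic unpaired arrays, against 6.21 and 5.56 in control paired arrays and 6.66 and 6.51 in control unpaired arrays.

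Beyond the members, 142 other genes of the pathway were listed in 11 groups by role, of which 131 had a probe set and 110 were tested. In epileptogenic against control rats 2 of the 110 passed as higher, Pde3b and Fos, against 2.81% of all tested probe sets, and 0 passed as lower, against 0.827%. With the letter as a block 7 were higher (7.58% of all) and 17 lower (8.65% of all). The median change over the 110 was -0.17, beside -0.11 for all. Between paired and unpaired training, and in the interaction, 0 of 110 passed with or without the block, against 0% of all.

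Pde3b encodes a cyclic AMP phosphodiesterase that cyclic GMP inhibits. Its log2 signal was 6.03 and 6.26 in epileptogenic paired and 6.13 and 6.00 in epileptogenic unpaired arrays, against 4.56 and 5.35 in control paired and 4.28 and 4.70 in control unpaired arrays. No control array reached the epileptogenic range, and the change was 1.38 ± 0.30 (limma adjusted p = 0.0392). Leaving out single arrays ended this call for 7 of the 8 arrays, with adjusted p up to 0.125, and kept it without control paired B (0.0468). Of the 8 other settings, 4 also ended it: median centring (0.0697), quantile normalization (0.0562), no filter (0.0724) and the A arrays alone (0.105). Fos, an early gene that CREB can switch on, was at 8.40 to 9.46 in epileptogenic arrays and 6.85 to 7.39 in control arrays, a change of 1.70 ± 0.28 (adjusted p = 0.0132; 0.0563 without control paired A). The means of microglial, astrocyte and oligodendrocyte markers were also higher in epileptogenic arrays. Their part in the changes of these 2 genes was not tested.

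Upstream of the cyclases, 0 of 7 Gs-coupled receptors passed (median change -0.16), with Htr4, a serotonin receptor, at -0.999 ± 0.341 (limma adjusted p = 0.157, or 0.0252 with the block) and Adcyap1r1, the receptor of the peptide PACAP, at -0.44 ± 0.18. Among Gi-coupled receptors 0 of 14 passed (median -0.45). Gabbr2, a subunit of the GABA-B receptor, stood at -1.03 ± 0.31 (limma adjusted p = 0.110, or 0.0015 with the block) and Npy1r, a neuropeptide Y receptor, at -0.83 ± 0.29 (0.170, or 0.0058 with the block). With the block 1 of the Gs-coupled receptors (Htr4) and 3 of the Gi-coupled receptors passed as lower, where 8.65% of all tested probe sets did. For the G proteins the count was 0 of 8 (median -0.38), with the beta subunit Gnb1 at -0.50 ± 0.17 (adjusted p = 0.157, or 0.0133 with the block) and the Gi family member Gnaz at -0.72 ± 0.27 (0.192, or 0.0239 with the block). The block gave 1 higher and 2 lower among the 8, against 7.58% and 8.65% of all tested probe sets. Of the other adenylyl cyclases 0 of 5 passed (median -0.03), with Adcy3 at -0.50 ± 0.22 and Adcy9 at 0.72 ± 0.39. Of the other phosphodiesterases 1 of 12 passed, Pde3b, and the median was -0.35; with the block 2 were higher and 2 lower.

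Around the kinase, 0 of 14 anchoring proteins passed (median -0.09). With the block 1 was higher, Akap13, against 7.58% of all tested probe sets. With it 4 were lower, Akap8l, Akap9, Akap11 and Map2, against 8.65% of all, and these were named after their values were seen. Akap13, which also activates the small GTPase RhoA, was at 0.85 ± 0.23 (limma adjusted p = 0.0786, or 0.0136 with the block). Akap6, the anchoring protein of the nuclear envelope in muscle cells, was at 0.95 ± 0.32 (limma adjusted p = 0.1498, or 0.0593 with the block). Among the inhibitors and other cyclic AMP sensors 0 of 6 passed, all 6 changes were negative and the median was -0.53. Pkia, an inhibitor peptide of the catalytic subunit, stood at 9.54 to 10.06 in epileptogenic arrays and 10.24 to 10.38 in control arrays, a change of -0.53 ± 0.17 (adjusted p = 0.146, or 0.0129 with the block), and Rapgef4, a cyclic AMP sensor outside the kinase, at -0.54 ± 0.22. For regulators of phosphatases that oppose the kinase 0 of 5 passed (median 0.04). Ppp1r1b, or DARPP-32, was at 0.61 ± 0.50 and Arpp21 at -0.46 ± 0.42. Both are strongly expressed in striatum. The mean of 7 striatal and central amygdala markers ran from 5.96 to 7.74 in epileptogenic arrays and from 6.89 to 7.75 in control arrays. Read by letter, it was 7.31 to 7.75 in A arrays and 5.96 to 6.91 in B arrays, without overlap.

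At the level of CREB, 0 of 9 family members passed (median 0.09; 1 lower with the block), with Crem at 0.43 ± 0.22 and Atf1 at 0.38 ± 0.21. Of its coactivators and kinases 0 of 12 passed (median 0.13), with Camkk1, a kinase that activates CaM kinases, at -0.65 ± 0.24 (limma adjusted p = 0.189, or 0.0299 with the block) and Rps6ka2, a kinase of the RSK family, at -0.41 ± 0.21. Of the genes known as CREB targets 1 of 18 passed, Fos, and their median was -0.15. The other 17 targets did not pass without the block. With it 3 of the 18 were higher (Fos, Per1 and Gadd45b), against 7.58% of all tested probe sets. Another 2 were lower (Nr4a3 and Per2), against 8.65% of all. All but Fos were named after their values were seen. Nr4a3, a nuclear receptor of the early response, was at -1.11 ± 0.28 (limma adjusted p = 0.0688, or 8.87e-04 with the block), and Per2, a circadian clock gene, at -0.76 ± 0.19 (0.0594, or 0.0061 with the block). In both, the 4 epileptogenic arrays lay below the 4 control arrays, as they did in 7.77% of all tested probe sets. Per1, another clock gene, was at 1.07 ± 0.34 (0.124, or 0.0310 with the block) and Gadd45b, a stress response gene, at 0.91 ± 0.42 (0.289, or 0.0413 with the block).

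**Figure D4:**
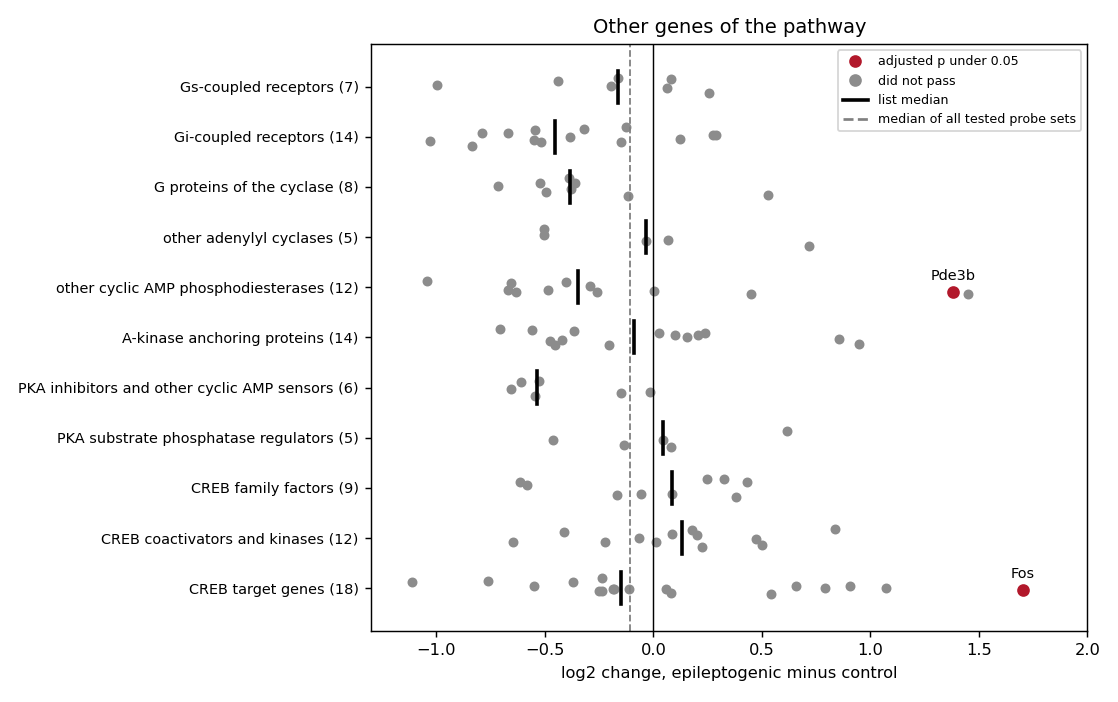
Log2 change (horizontal axis, epileptogenic minus control) of 110 other genes of the pathway in 11 groups by role, with 1 point per gene, a bar at each group's median and the number tested in brackets. The genes that passed, Pde3b at 1.38 and Fos at 1.70, are in red, and the dashed line is the median of all tested probe sets at -0.11.

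A target promoter with the full element is shown for comparison with the windows of the kinase genes, with the element in capitals. Vgf encodes a neuropeptide precursor, and its RefSeq window lies at chr12:25276971-25277270 on the minus strand of GRCr8.
Vgf: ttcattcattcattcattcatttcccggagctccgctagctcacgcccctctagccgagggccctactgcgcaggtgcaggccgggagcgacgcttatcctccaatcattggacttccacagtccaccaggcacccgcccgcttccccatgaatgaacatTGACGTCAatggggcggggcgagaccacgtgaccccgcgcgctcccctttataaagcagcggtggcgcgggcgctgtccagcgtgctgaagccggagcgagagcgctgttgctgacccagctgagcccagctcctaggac
The element begins 90 bases before the start site. The target list had 20 promoters, of 15 of its 20 genes. The full element was found in 5 of these promoters (25.0%) and the short form in 12 (60.0%), against 1.83% and 21.2% of all promoters. The list was made of genes known as CREB targets, so a share above that of all promoters goes with its choice and is no test. The 5 genes with the full element were Vgf, Dusp1, Scg2, Ppargc1a and Sst. In epileptogenic against control rats Vgf was at 0.54 ± 0.33, Dusp1 at 0.79 ± 0.36, Scg2 at -0.24 ± 0.22 and Ppargc1a at -0.18 ± 0.22, none past the test, and Sst was not tested.

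Over the 8 arrays, the genes whose pattern lay nearest to that of Prkar2b among 10364 named genes were Jakmip2, Lgi1, Negr1, Vsnl1 and Scg5. Nearness was measured as the root mean square difference in log2 signal after centring each gene, and it was 0.080 for Jakmip2, 0.11 for Lgi1, Negr1 and Vsnl1, and 0.12 for Scg5. The epileptogenic minus control change of these genes ran from -0.83 for Jakmip2 to -0.74 for Lgi1, as their choice by likeness fixes.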

How the data were processed

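Amplified RNA from laser-microdissected rat amygdala was hybridised to 8 Affymetrix arrays. The deposited values are signal intensity on a linear scale, made by the authors with MAS5 per the submitters' processing notes; its version and scaling target are not given in the sources used here, and detection calls were not used here. Signals were taken to log2 with no further normalization of the deposited intensities. The 57 control probe sets were left out, and probe sets whose log2 signal, averaged over arrays, exceeded the 40th percentile (4.35, a signal of 20.3) were tested. The platform annotation gave 1 symbol for 20826 probe sets, several for 436 and none for 9780.

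Groups were compared with limma 3.58.1 in R 4.3.3, with 4 group means, an intensity trend and two-sided tests in 7 comparisons, with p-values adjusted after Benjamini and Hochberg over all tested probe sets at 0.05. The procedure was run on simulated data with independent noise in each array. That simulation held no deviation shared by arrays of like letter, so it cannot show how the procedure handles one. Arrays of like letter deviated together from their group means (correlation 0.321 to 0.407 in all 6 pairs of groups), so the letter was also fitted as a block; per the labels the arrays are biological replicates, and the meaning of A and B is not stated. Other alternatives were median centring, quantile normalization, log2(signal + 16), no filter, a 60th percentile filter, no intensity trend, each letter alone and leaving out each array. A letter alone leaves a single array per group and was fitted with stage and training but no interaction. Its p-values rest largely on a spread estimated over all tested probe sets, and its counts are descriptions.

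All members are named. Each gene was read by its probe set of highest mean signal, the leading one. Of the other lists, genes that passed are named, or else the 2 of smallest p as values only, and the 5 genes most like Prkar2b. The members and lists were chosen with earlier results of these data known. In epileptogenic against control arrays, the marker lists beyond excitatory neurons and microglia gave 1 of 7 interneuron genes lower and 0 of 9 pan-neuronal genes called. Higher were 3 of 8 astrocyte and 1 of 8 oligodendrocyte genes. Called were 0 of 6 endothelial, 0 of 7 striatal and central amygdala and 0 of 1 blood cell genes. Promoters are RefSeq's, of build GRCr8. Plots used Python 3.11.15 with matplotlib 3.10.9.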

Additional observations from a re-analysis of the deposited data

Results flagged for a closer look

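In 26 checks of 4 arrays of 1 stage, 2 held an array that stood apart by Dixon's criterion at the 95% level, and some such cases come up by chance in that many checks. Prkar2b was at 9.23 in control unpaired A, with the other control arrays at 9.05 to 9.07 (ratio of gap to range 0.881); this array is the control farthest from the epileptogenic range, and without it the change was -0.81. The leading Prkar2a probe set was at 8.81 in the same array, control unpaired A, with the other controls at 9.09 to 9.14 (ratio 0.850).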

How the results depend on the processing

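Epileptogenic against control rats called 677 probe sets (523 higher, 154 lower). The count was 3022 with the replicate block, 389 with median centring (377 higher, 12 lower), 330 without the intensity trend (297 higher, 33 lower), 3007 in the B arrays alone, and 224 to 435 when 1 array was left out. The quantile-normalized count of 731 and those with an offset, no filter, a stricter filter or the A arrays alone stayed within 1.5 times. Of the members, 1 was called (Prkar2b), 2 with the block and in the B arrays alone (Prkar2b and Prkar1b), and 0 with median centring, quantile normalization, no intensity trend, the A arrays alone or any array left out. After paired training the count was 99, with 860 under the block, 0 with median centring or no intensity trend, and 0 to 74 without 1 array. After unpaired training it was 59, with 1306 under the block (1 member, Prkar2b), 0 with median centring or no intensity trend, 98 with quantile normalization, 103 with the 60th percentile filter, and 0 to 34 without 1 array. Paired against unpaired training gave 0, and 150 in the B arrays alone; in control rats it gave 0, and 0 to 2 without 1 array. The block changed no other member call. No member that passed changed direction in the alternatives run, while 14 of 222 values of members that had not passed changed sign in the epileptogenic comparison, 34 of 219 between trainings and 16 of 193 in the interaction. The causes of these shifts were not tested. Alternatives for Pde3b and Fos were chosen after seeing the data. Signals near the filter, such as those of Adcy8, have no measured background here.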

Other observations

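The letters of the arrays went with 3 of the 13 member probe sets. Creb1 was at 8.62 to 8.86 in the B arrays and 8.02 to 8.30 in the A arrays, and the leading Pde4b probe set at 10.28 to 10.63 in B and 9.70 to 10.17 in A arrays, higher in B in 4 of 4 groups for both. The brightest Prkar1a probe set was at 12.37 to 12.62 in B and 12.76 to 13.29 in A arrays, lower in B in every group. Such a separation was seen in 17.1% of all tested probe sets. The mean of the striatal and central amygdala markers was also lower in B than in A arrays, without overlap. Its part in the letter differences was not tested. For Creb1 the mean B minus A difference of 0.66 was larger than its epileptogenic minus control change of 0.08.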
